A study of Mus musculus with 4 samples.

Results

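Integrins, laminins, nidogens and dystroglycan are the surface receptors and the sheet-forming matrix proteins through which astrocytes attach to basement membranes. The 36 genes described here are 23 integrin subunits, 10 laminin chains, both nidogens and Dag1, taken by symbol from the 55467 gene rows of the deposited tables. Each symbol stood on a single row. The leukocyte integrins Itgal, Itgam, Itgax and Itgb2 are kept apart from the other 32 genes.

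Laminins are cross-shaped trimers of an alpha, a beta and a gamma chain, and nidogens bridge them to the collagen IV network. Integrins are dimers of an alpha and a beta subunit that bind laminins, other matrix proteins or surface proteins of other cells and couple them to actin. Dystroglycan is a second laminin receptor, and at astrocyte endfeet it helps to hold the water channel Aqp4 in place. In brain, laminin trimers with the Lama1 or Lama2 chain are known from the parenchymal basement membrane that astrocyte endfeet contact, and those with Lama4 or Lama5 from the endothelial one.

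RNA was sequenced from 2 CD38 KO and 2 WT libraries of primary mouse cortical astrocytes, to ask which transcripts differ when the NAD+-consuming surface enzyme CD38 is missing. Both genotypes were grown the same way. The cells came from the cortex of pups 1 to 3 days old, were freed by enzyme and kept for 14 days in 10% bovine serum, flasks were shaken for 12 h to remove loose cells, and the attached cells were replated and taken after 5 more days. The labels give neither the strains, the deleted exons, nor whether the replicates are separate animals or cultures. Loss of Cd38 and a strain or culture difference between the genotypes therefore cannot be told apart, and p-values measure only the spread between these libraries, which may be technical.

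Values are FPKM, the authors' fragments scaled to transcript length and to the mapped fragments of the library, so levels of different genes can be compared on this scale. Steps in the low values put the depth at about 29012000 and 29076000 fragments in CD38 KO and at about 26832000 and 28248000 in WT. Cd38 was at 0.0222 FPKM in each CD38 KO library, against 3.13 and 3.45 FPKM in WT. The astrocyte markers Gfap (1198 and 1225 FPKM in CD38 KO, 1390 and 1330 in WT) and Aqp4 (252 and 267 in CD38 KO, 331 and 321 in WT) were abundant in all 4 libraries. Of 11 tested astrocyte markers 2, Aldh1l1 and Gja1, were higher and 7 lower in CD38 KO, with a median log2 change of -0.32. Without 1 library 0 or 1 of these were higher and 2 to 4 lower, and the median was -0.31 to -0.24.

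A gene was tested when its mean over the 4 libraries reached 1 FPKM, and it was called when limma gave an adjusted p under 0.05 over all tested genes. Among 13064 tested genes 8.0% were called higher and 6.35% called lower in CD38 KO, 14.4% in all. Of the 36 genes 23 were tested, and 7 of these were higher and 3 lower. Outside the leukocyte integrins, 20 of 32 genes were tested. Nid1, Nid2, Lama2 and Itgb5 were higher in CD38 KO, and Lama4, Itga7 and Dag1 were lower, while the other 13 did not pass. The median log2 change of these 20 genes was 0.01, beside 0.00 over all tested genes. Among all 23 tested genes the libraries of the genotypes did not overlap in 19, a separation also seen in 59.9% of all tested genes.

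Most of these calls rest on all 4 libraries being present. In fits that left out 1 library, 1 or 2 of the 20 non-leukocyte genes were called higher and 0 or 1 lower. Nid2 alone among the 7 called genes was called in all 4 such fits, whereas Itgb5, Itga7, Lama2 and Dag1 were called in none of them. The direction of every one of the 7 genes was the same in each of these fits.

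**Figure D1:**
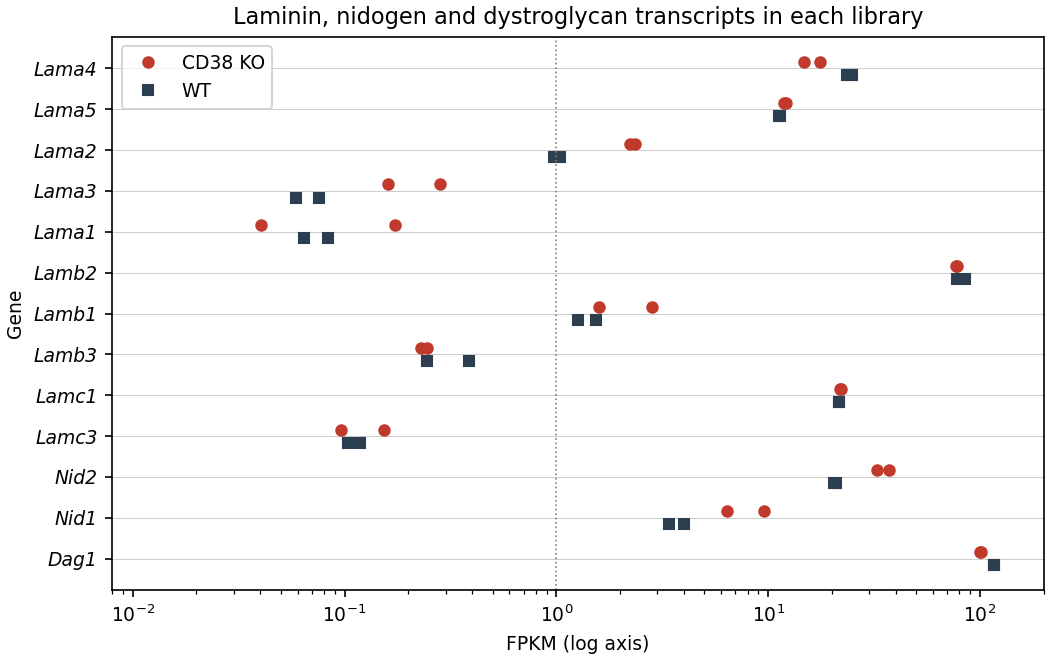
FPKM of the laminin chains, nidogens and Dag1 in each library, on a log axis, with CD38 KO libraries as red circles above WT libraries as dark squares; the dotted line marks 1 FPKM. Lamb2, Lamc1 and Dag1 lie high in all 4 libraries, Nid2 and Nid1 lie further right in CD38 KO, and Lama4 lies further left in CD38 KO.

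Both nidogens were higher in CD38 KO, and Nid2 was the more abundant of them in every library. Nid2 (ENSMUSG00000021806, GRCm38 chromosome 14, 19751265 to 19811787, plus strand) was at 32.6 and 37.2 FPKM in CD38 KO and at 20.8 and 20.5 FPKM in WT. Both CD38 KO libraries thus lay above both WT libraries. The mean was 34.9 ± 3.23 FPKM in CD38 KO and 20.7 ± 0.22 FPKM in WT (SD, n = 2 each), a ratio of 1.69 (log2 change 0.72 on the scale of log2 of FPKM + 1, SE 0.07, limma adjusted p = 0.00305). Without 1 library the log2 change was 0.63 to 0.82, with adjusted p of 0.0202 to 0.0372.

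Nid1 (ENSMUSG00000005397, chromosome 13, 13437551 to 13512269, plus strand) was at 9.54 and 6.42 FPKM in CD38 KO and at 3.39 and 4.01 FPKM in WT. The genotypes did not overlap, but the CD38 KO libraries differed more from each other than the WT libraries did. The ratio of means was 2.16 (7.98 ± 2.21 FPKM in CD38 KO, 3.70 ± 0.442 in WT, log2 change 0.92, SE 0.18, adjusted p = 0.0268). The call held without CD38 KO 2 (adjusted p = 0.04) and ended without CD38 KO 1 (0.105), WT 1 (0.138) or WT 2 (0.109), and also without a filter on low values (0.141) and without the trend in the moderation (0.0548). Summed over both nidogens, CD38 KO had 42.2 and 43.6 FPKM and WT 24.2 and 24.5 FPKM.

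The summed fibroblast and meningeal markers followed the order of Nid1 within each genotype, but single markers did not all do so. The 12 listed markers summed to 72.2 and 44.8 FPKM in CD38 KO and to 38.3 and 52.8 FPKM in WT. Like Nid1, the sum was higher in the first CD38 KO library than in the other, and lower in the first WT library. Most of the sum was from Col1a1, Col1a2 and Col3a1, and without these it was 15.2 and 12.6 FPKM in CD38 KO and 14.5 and 19.2 FPKM in WT, a sum chosen after seeing the data. Col1a1, Col1a2, Col3a1, Dcn, Lum, Pdgfra, Aldh1a2 and Foxd1 followed the order of Nid1 within both genotypes. Aldh1a2, which was not tested, was at 1.18 and 0.853 FPKM in CD38 KO and 0.302 and 0.304 FPKM in WT. Ptgds was at 6.96 and 7.66 FPKM in CD38 KO and 7.94 and 9.88 FPKM in WT. Foxc1 was at 1.5 and 1.83 FPKM in CD38 KO and 1.5 and 1.63 FPKM in WT. Ptgds and Foxc1 ran against Nid1 within CD38 KO and with it within WT. Of 7 tested markers 0 were called higher and 1, Pdgfra, lower. Of the 12, 4 were below 1 FPKM in all libraries and Slc22a6 was listed at 0 in all of them. Pdgfra, at 1.6 and 1.24 FPKM in CD38 KO and 3.37 and 4.84 FPKM in WT, is also part of the sum without collagens. It is listed as an oligodendrocyte lineage marker too. Of 7 tested markers of that lineage 0 were called higher and 2, Pdgfra and Olig2, lower. By limma, 2 of the 7 tested fibroblast and meningeal markers had an unadjusted p under 0.05, Pdgfra and Col1a1, beside 30.3% of all tested genes. Col1a1 did not pass the adjustment (adjusted p = 0.0988), at 26.4 and 17.1 FPKM in CD38 KO and 12 and 14.8 FPKM in WT. Mural cell markers summed to 96.2 and 109 FPKM in CD38 KO and to 79.7 and 74.2 FPKM in WT, an order over the libraries shared with Nid2. Within CD38 KO that order came from Tagln, at 42.1 and 59.8 FPKM in CD38 KO and 31.9 and 27 FPKM in WT. Without Tagln the markers had 54.1 and 49.7 FPKM in CD38 KO and 47.7 and 47.2 FPKM in WT. In this sum, chosen after seeing the data, both CD38 KO libraries still lay above both WT libraries. Of 5 tested mural markers 1, Tagln, was higher, a call that held in 1 of the 4 fits without 1 library (without CD38 KO 1) and ended without a filter, without the trend and with robust moderation. The pericyte genes Kcnj8 and Abcc9, and Vtn, were below 0.1 FPKM in all libraries, but other listed mural genes were not. Pdgfrb was at 10.5 and 9.61 FPKM in CD38 KO and 9.45 and 10.2 FPKM in WT. Rgs5 was at 1.22 and 0.901 FPKM in CD38 KO and 0.879 and 0.603 FPKM in WT. Anpep was at 0.741 and 0.889 FPKM in CD38 KO and 0.241 and 0.296 FPKM in WT. Neither Rgs5 nor Anpep was tested. Cspg4 lay below WT in both CD38 KO libraries and was not called. The part of these cells in the nidogen values was not tested. In bulk RNA, a change in the number of cells of a type and a change in RNA per cell cannot be told apart.

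The laminin alpha chains went in different directions. Lama4 (ENSMUSG00000019846, chromosome 10, 38965515 to 39110188, plus strand), the alpha chain known from endothelial basement membranes, was the most abundant alpha chain in all 4 libraries. It was at 17.5 and 14.8 FPKM in CD38 KO and at 23.6 and 24.8 FPKM in WT. Both CD38 KO libraries were below both WT libraries, with means of 16.1 ± 1.90 FPKM in CD38 KO and 24.2 ± 0.853 FPKM in WT (SD, n = 2 each). The log2 change was -0.56 (SE 0.09, adjusted p = 0.0132). The call held without CD38 KO 1 (adjusted p = 0.0389) and ended without CD38 KO 2 (0.0675), WT 1 (0.0735) or WT 2 (0.102), and without a filter (0.087). Most endothelial markers were scarce beside it, and they differed in direction. Of 12 such markers 9 were below 1 FPKM in all libraries, among them Cldn5 at 0 and 0 FPKM in CD38 KO and 0 and 0.0284 FPKM in WT, and Kdr at 0.0419 and 0.0896 FPKM in CD38 KO and 0.181 and 0.16 FPKM in WT. Pecam1 was at 1.39 and 1.1 FPKM in CD38 KO and 0.542 and 0.214 FPKM in WT, a ratio of 3.28. Cdh5 and Tie1, below 1 FPKM throughout, also lay higher in both CD38 KO libraries, with ratios of 4.31 and 4.85, and none of the 3 was tested. The sums of all 12, 166 and 152 FPKM in CD38 KO and 137 and 147 FPKM in WT, came almost wholly from the transporter Slco1a4, and by limma 0 of 2 tested markers were called, with 1 at an unadjusted p under 0.05. Their part in the level of Lama4 was not tested.

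Lama2 (ENSMUSG00000019899, chromosome 10, 26980036 to 27619758, minus strand), the alpha chain that is mutated in merosin-deficient muscular dystrophy and that dystroglycan binds strongly, was low but higher in CD38 KO. It had 2.36 and 2.23 FPKM in CD38 KO and 1.04 and 0.978 FPKM in WT. The libraries of each genotype lay close together, and the ratio of means was 2.27 (2.29 ± 0.089 FPKM in CD38 KO, 1.01 ± 0.045 in WT, log2 change 0.71, SE 0.12, adjusted p = 0.0162). The log2 change stayed between 0.69 and 0.74 without 1 library, although the call was lost in each (adjusted p = 0.0622 to 0.0835) and without a filter (0.0652).

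Lama5, the other endothelial alpha chain, was at 11.9 and 12.2 FPKM in CD38 KO and at 11.3 and 11.4 FPKM in WT, with a log2 change of 0.07 (95% interval -0.07 to 0.22). Lama1 and Lama3 were not tested. Lama1 had 0.174 and 0.0404 FPKM in CD38 KO and 0.0836 and 0.0643 in WT. Lama3 had 0.16 and 0.281 FPKM in CD38 KO and 0.0761 and 0.0592 in WT. These levels stand for about 11 to 85 fragments in each library, and the genotypes overlapped for Lama1 but not for Lama3.

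Set against the sum of the 5 alpha chains, Lama4 made up 54.6% and 50.1% of alpha-chain FPKM in CD38 KO and 65.4% and 66.5% in WT. Lama5 held 37.0% and 41.3% in CD38 KO and 31.3% and 30.6% in WT. Lama2 held 7.35% and 7.55% in CD38 KO and 2.88% and 2.62% in WT. The summed level itself was 32.1 and 29.5 FPKM in CD38 KO and 36.1 and 37.4 FPKM in WT.

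**Figure D2:**
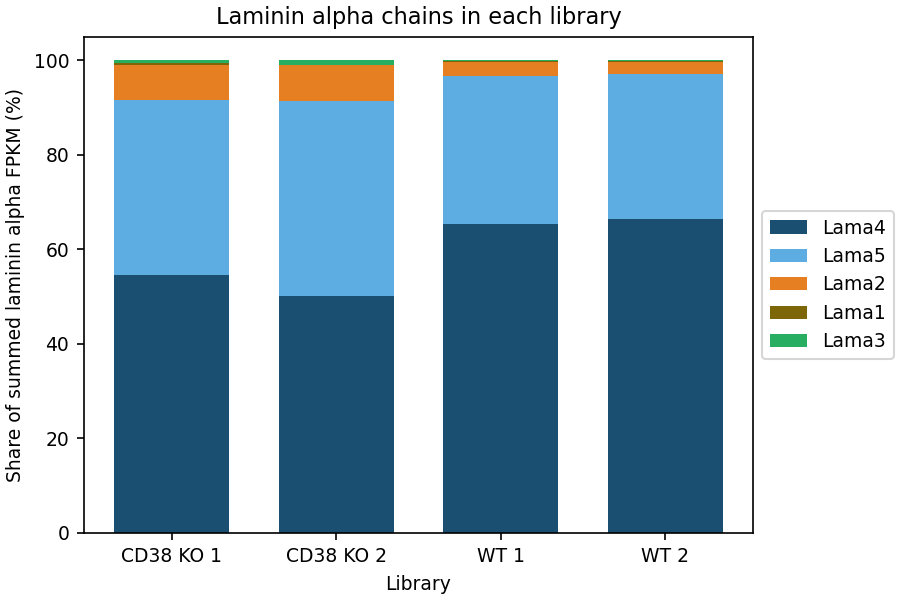
Share of the summed laminin alpha FPKM held by each alpha chain, in percent, 1 stacked bar for each library. The Lama4 segment takes 54.6% and 50.1% in the CD38 KO bars and 65.4% and 66.5% in the WT bars, and the Lama2 segment is larger in both CD38 KO bars.

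The beta and gamma chains were each dominated by 1 gene and none was called. Lamb2, the beta chain of synaptic and mature basement membranes, was at 78.3 and 76.9 FPKM in CD38 KO and at 84.7 and 77.8 FPKM in WT, with a log2 change of -0.06 (95% interval -0.20 to 0.07). The genotypes overlapped. Lamb2 held 96.3% to 97.7% of beta-chain FPKM in CD38 KO and 97.6% to 98.2% in WT. Lamc1, the common gamma chain, was at 22.1 and 21.9 FPKM in CD38 KO and at 21.6 FPKM in both WT libraries, a log2 change of 0.03 (95% interval -0.10 to 0.15).

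Lamb1, the beta chain of embryonic basement membranes, was at 2.82 and 1.59 FPKM in CD38 KO and at 1.27 and 1.54 FPKM in WT. Its log2 change of 0.39 did not pass (SE 0.21, adjusted p = 0.278). It followed the same order over the libraries within each genotype as Nid1 and the fibroblast sum. Itga5, Lama4 and Itgal had that order too, and how common it is over all tested genes was not counted. The log2 change of Lamb1 was 0.11 without CD38 KO 1 and 0.67 without CD38 KO 2. Lamb3, an epithelial beta chain, and Lamc3 stayed between 0.0966 and 0.388 FPKM in all libraries and were not tested.

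**Figure D3:**
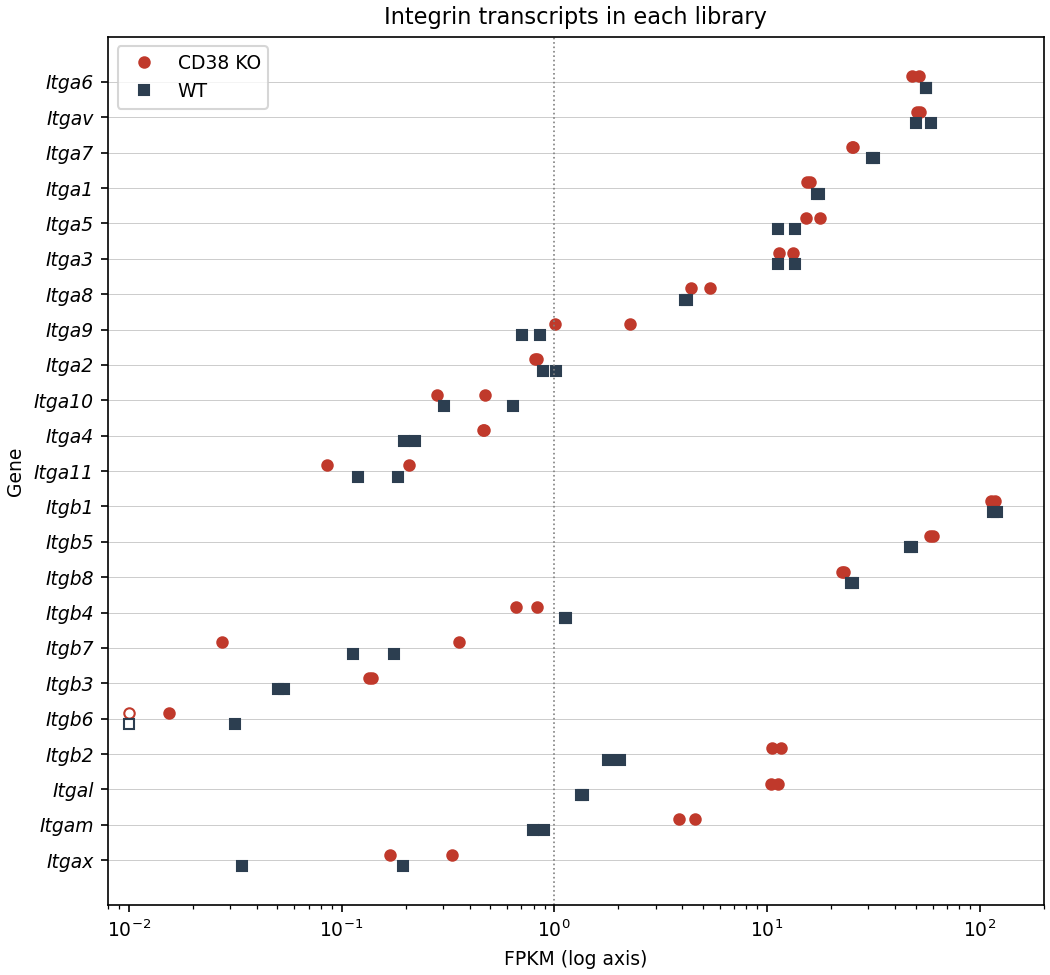
FPKM of the 23 integrin subunits in each library, on a log axis, with CD38 KO libraries as red circles above WT libraries as dark squares; the dotted line marks 1 FPKM and open symbols at the left edge are libraries listed at 0. The genotypes lie close together for most subunits, while Itgb2, Itgal and Itgam lie well to the right in CD38 KO.

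Among the receptors, the shared beta subunit Itgb1 was the most abundant integrin in every library. Itgb1 (ENSMUSG00000025809, chromosome 8, 128685654 to 128733200, plus strand) was at 113 and 118 FPKM in CD38 KO and at 120 and 116 FPKM in WT. The genotypes overlapped, and the log2 change was -0.03 (95% interval -0.15 to 0.08, adjusted p = 0.688). Itgb1 held 57.4% and 58.8% of the FPKM summed over the 7 non-leukocyte beta subunits in CD38 KO, and 61.6% and 61.2% in WT.

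Itgb5 (ENSMUSG00000022817, chromosome 16, 33829665 to 33949338, plus strand), which forms the vitronectin receptor with Itgav, was the 1 beta subunit outside the leukocyte group that was called. It was at 60.1 and 58.6 FPKM in CD38 KO and at 48.1 and 47.1 FPKM in WT. The gap between the genotypes was larger than the difference within either, with means of 59.4 ± 1.06 FPKM in CD38 KO and 47.6 ± 0.766 FPKM in WT (SD, n = 2 each). The ratio was 1.25 and the log2 change 0.31 (SE 0.04, adjusted p = 0.00986). Leaving out any 1 library ended the call (adjusted p = 0.055 to 0.0887), with a log2 change of 0.30 to 0.33.

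Itgb8, whose dimer with Itgav activates latent TGF-beta on glia, was at 22.5 and 23.1 FPKM in CD38 KO and at 25.3 and 24.9 FPKM in WT. Its log2 change of -0.14 (95% interval -0.26 to -0.01) did not pass (adjusted p = 0.14). Itgb3, Itgb4, Itgb6 and Itgb7 had means under 1 FPKM and were not tested. Itgb4, the hemidesmosome subunit, was at 0.663 and 0.828 FPKM in CD38 KO and at 1.14 and 1.12 FPKM in WT. Itgb3, another partner of Itgav, was at 0.135 and 0.139 FPKM in CD38 KO and at 0.0534 and 0.0504 FPKM in WT, and the genotypes did not overlap for either gene. Itgb6 was listed at 0 in 1 library of each genotype. The partners of Itgav that reached the test were therefore Itgb1, Itgb5 and Itgb8.

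Itga6 and Itgav were the most abundant alpha subunits, and their library values overlapped, so they have no order between them. Itga6, a laminin receptor subunit, was at 48.2 and 52.1 FPKM in CD38 KO and at 56.2 and 55.7 FPKM in WT, with a log2 change of -0.16 (95% interval -0.29 to -0.02, adjusted p = 0.116). Itgav was at 52.4 and 50.7 FPKM in CD38 KO and at 58.8 and 50.3 FPKM in WT, where the WT libraries enclosed both CD38 KO values.

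Itga7 (ENSMUSG00000025348, chromosome 10, 128933818 to 128958282, plus strand), a laminin receptor subunit best known from muscle, came next in level and was the 1 alpha subunit called of the 8 tested outside the leukocyte group. It was at 25.4 and 25.2 FPKM in CD38 KO and at 31.1 and 31.9 FPKM in WT. The difference between the genotypes exceeded that within them (25.3 ± 0.137 FPKM in CD38 KO, 31.5 ± 0.574 in WT, SD, n = 2 each), with a log2 change of -0.31 (SE 0.05, adjusted p = 0.014). Leaving out any 1 library ended the call (adjusted p of 0.0703 to 0.0995). The 3 laminin-binding alpha subunits Itga3, Itga6 and Itga7 together had 85.1 and 90.6 FPKM in CD38 KO and 101 and 98.9 FPKM in WT.

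Below these, Itga1, Itga5 and Itga3 lay between 11.3 and 17.8 FPKM in all libraries, and Itga8 between 4.10 and 5.42 FPKM. Itga5, the fibronectin receptor subunit, was at 17.8 and 15.3 FPKM in CD38 KO and at 11.3 and 13.6 FPKM in WT. It missed the threshold (log2 change 0.39, SE 0.11, limma adjusted p = 0.0716), and passed when protein-coding genes alone were tested (0.0469). Itga5 also passed with a block that crosses the replicate numbers (0.0154), a setting chosen after seeing the data. The collagen receptor subunit Itga1 was at 15.5 and 15.9 FPKM in CD38 KO and at 17.2 and 17.6 FPKM in WT (log2 change -0.14, adjusted p = 0.164). Itga3, a further laminin receptor subunit, overlapped between the genotypes, with a log2 change of -0.00 (95% interval -0.28 to 0.27).

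Itga9, a receptor for tenascin-C and osteopontin, was at 2.27 and 1.01 FPKM in CD38 KO and at 0.853 and 0.703 FPKM in WT, and did not pass (adjusted p = 0.22). Its log2 change of 0.53 was 0.18 without CD38 KO 1 and 0.88 without CD38 KO 2. Its relative Itga4, known from leukocytes and neural crest, was at 0.464 and 0.467 FPKM in CD38 KO and at 0.196 and 0.221 FPKM in WT, about 129 and 130 fragments against 50 and 60. Itga4 was below the level tested. The collagen receptor subunits Itga2, Itga10 and Itga11 were not tested either, at 0.0859 to 1.02 FPKM over all libraries.

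Dag1 (ENSMUSG00000039952, chromosome 9, 108204634 to 108263958, minus strand), which encodes both subunits of dystroglycan, was close to Itgb1 in level and slightly lower in CD38 KO. It was at 100 and 101 FPKM in CD38 KO and at 116 FPKM in both WT libraries. The spread within each genotype was small (101 ± 0.388 FPKM in CD38 KO, 116 ± 0.395 in WT, SD, n = 2 each), and the log2 change was -0.21 (SE 0.04, adjusted p = 0.0248). Its call was lost whichever library was left out (adjusted p of 0.105 to 0.127), without the trend (0.0884) and without a filter (0.0541). The 12 listed astrocyte markers were also lower in sum, at 3256 and 3246 FPKM in CD38 KO and 3787 and 3718 FPKM in WT. Single markers differed, since Aldh1l1 and Gja1 were called higher and Slc1a2 lay above WT without a call. The part of these markers in the values of Dag1, Itga7 and Lama4 was not tested.

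**Figure D4:**
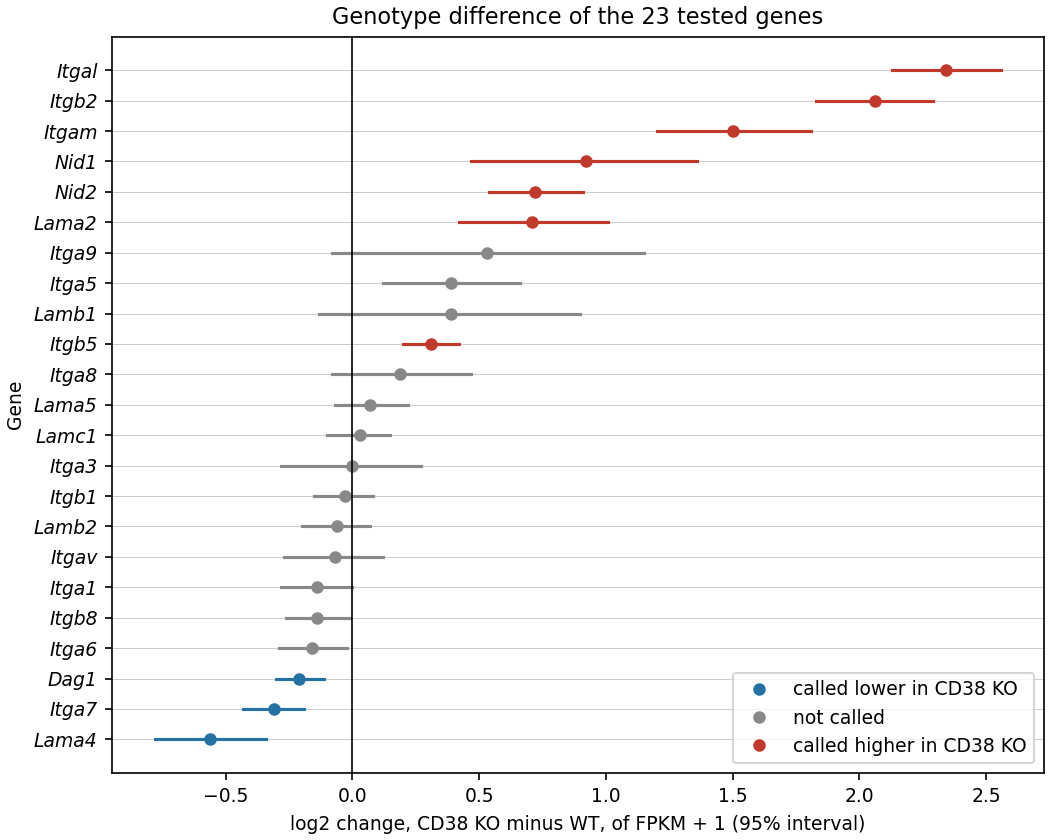
Log2 change of FPKM + 1 in CD38 KO minus WT for the 23 tested genes, as points with 95% intervals from limma, coloured by call. Itgal, Itgb2 and Itgam lie between 1.5 and 2.34, Nid1, Nid2 and Lama2 between 0.71 and 0.92, and the genes called lower between -0.56 and -0.21.

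The leukocyte integrins showed the largest differences of the 23 tested genes. These subunits form the receptors LFA-1 (Itgal with Itgb2) and Mac-1 (Itgam with Itgb2), by which white blood cells and microglia bind ICAMs and complement fragments. All 3 that reached the test were higher in CD38 KO. Itgam reached it only through CD38 KO, since its mean in WT was 0.844 FPKM.

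Itgal (ENSMUSG00000030830, chromosome 7, 127296260 to 127335138, plus strand) was at 11.3 and 10.5 FPKM in CD38 KO and at 1.34 and 1.36 FPKM in WT. The genotypes were far apart, with means of 10.9 ± 0.57 FPKM in CD38 KO and 1.35 ± 0.016 FPKM in WT (SD, n = 2 each), a ratio of 8.10 (log2 change 2.34, SE 0.09, adjusted p = 0.000102). Itgb2 (ENSMUSG00000000290, chromosome 10, 77530252 to 77565708, plus strand) was at 11.7 and 10.6 FPKM in CD38 KO and at 1.79 and 2.03 FPKM in WT, a ratio of 5.83 (log2 change 2.06, SE 0.09, adjusted p = 0.000167). Itgam (ENSMUSG00000030786, chromosome 7, 128062640 to 128118491, plus strand), the CD11b antigen, was at 4.61 and 3.87 FPKM in CD38 KO and at 0.791 and 0.897 FPKM in WT, a ratio of 5.03 (log2 change 1.5, SE 0.12, adjusted p = 0.0015). None of the 3 overlapped between the genotypes. They were called in all 4 fits without 1 library, with adjusted p of at most 0.0131 for Itgb2, 0.0106 for Itgal and 0.0253 for Itgam.

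Itgax (ENSMUSG00000030789, chromosome 7, 128129547 to 128150657, plus strand), the CD11c antigen of dendritic cells and activated microglia, stayed low. It was at 0.169 and 0.329 FPKM in CD38 KO and at 0.194 and 0.0342 FPKM in WT, about 19 and 37 fragments against 20 and 4. The genotypes overlapped, and the gene was not tested. Itgam and Itgax lie next to each other on chromosome 7, with 11055 bases between the end of the one and the start of the other.

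The bases before the start sites of these neighbours are shown because 1 of them was called and the other was near the floor. They come from RefSeq on GRCm38.p6, plus strand, chr7:128062390-128062639 for Itgam and chr7:128129300-128129549 for Itgax, 5′ to 3′. Capitals mark GAGGAA or its reverse complement TTCCTC, the purine-rich core that the myeloid factor PU.1 (Spi1) is known to bind.
Itgam: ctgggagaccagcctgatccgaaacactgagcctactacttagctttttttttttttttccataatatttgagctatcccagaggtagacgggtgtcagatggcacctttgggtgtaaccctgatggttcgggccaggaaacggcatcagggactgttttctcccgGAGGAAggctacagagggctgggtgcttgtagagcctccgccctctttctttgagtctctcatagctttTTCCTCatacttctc
Itgax: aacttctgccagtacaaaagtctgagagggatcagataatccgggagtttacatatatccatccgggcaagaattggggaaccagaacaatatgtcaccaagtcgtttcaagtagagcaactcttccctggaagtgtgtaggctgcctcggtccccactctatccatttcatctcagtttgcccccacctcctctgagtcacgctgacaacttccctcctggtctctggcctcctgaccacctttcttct

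The Itgam stretch holds 2 matches, beginning 84 and 15 bases before the start site, and the Itgax stretch holds 0. Over all 32851 RefSeq promoter stretches of 250 bases, 23.3% hold at least 1 match on either strand. A match describes letters and not binding, and its part in the levels of Itgam and Itgax was not tested. Of the 4 leukocyte integrins only these 2 had a promoter stretch, so Itgal and Itgb2 were not searched. Spi1 itself was at 15.7 and 13.7 FPKM in CD38 KO and at 2.98 and 3.78 FPKM in WT.

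Markers of microglia and macrophages moved with the 3 leukocyte integrins. The 20 listed markers summed to 945 and 844 FPKM in CD38 KO and to 180 and 167 FPKM in WT, and all 17 tested ones were higher, with a median log2 change of 2.34 (15 of the 17 in each fit without 1 library). Aif1 was at 18.8 and 16.2 FPKM in CD38 KO and 2.85 and 2.47 in WT, and Csf1r was at 12.3 and 12.9 FPKM in CD38 KO and 1.91 and 2.23 in WT. Cx3cr1 and Tmem119 were under 1 FPKM in both WT libraries and reached the test only through CD38 KO. The 3 below the level tested were P2ry12, Mrc1 and Cd163, all under 1 FPKM in every library. Most markers of other white blood cells were near 0. Of 14 such genes 12 were below 0.1 FPKM in all 4 libraries, and Cd3e, Cd3g, Ncr1, Ly6g, S100a9 and Cpa3 were listed at 0 in all of them. The exception that reached the test was S100a8, known from neutrophils and monocytes, at 1.63 and 1.52 FPKM in CD38 KO and 1.4 and 0.672 FPKM in WT, which was not called (log2 change 0.36, adjusted p = 0.29). Which cells made the integrin transcripts was not tested.

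**Figure D5:**
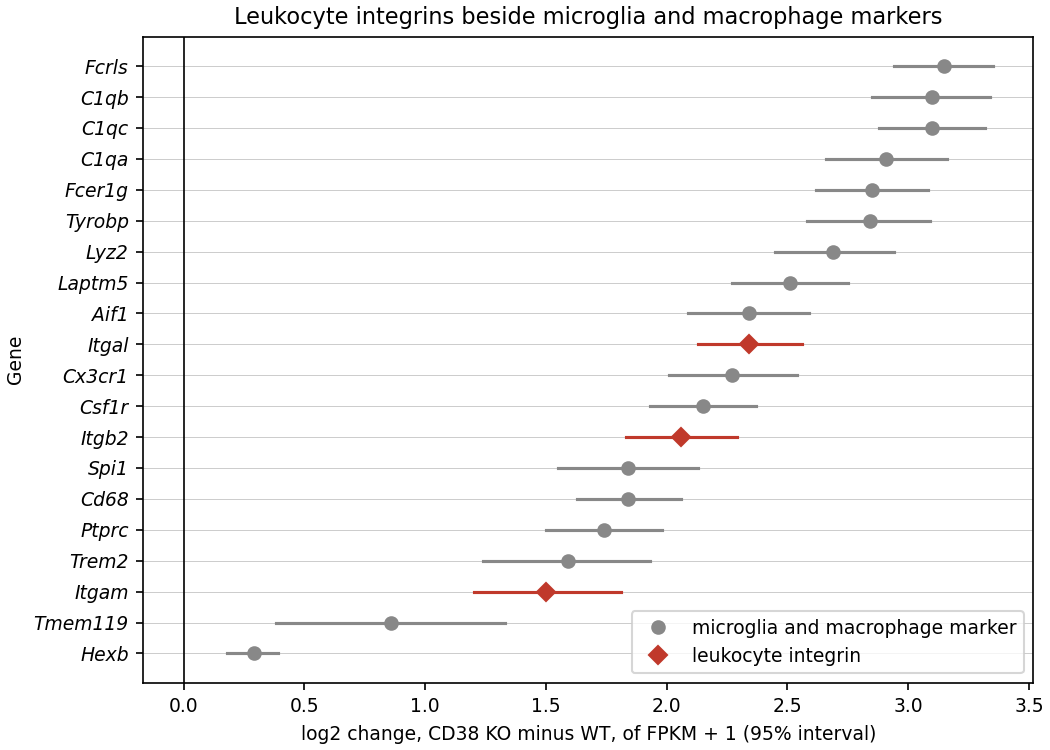
Log2 change of FPKM + 1 in CD38 KO minus WT with 95% intervals, for the 3 tested leukocyte integrins (red diamonds) and the 17 tested markers of microglia and macrophages (grey circles). The integrins, at 1.5 to 2.34, lie within the range of the markers, 0.29 to 3.15.

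Inside the cell, integrin tails are held by talins, kindlins and the Ilk complex. Of 26 tested adaptors and adhesion kinases 6 were higher and 3 lower in CD38 KO, with a median log2 change of -0.04. The share called was 34.6%, beside 14.4% of all tested genes. Fermt3, the kindlin of blood cells, was at 9.04 and 6.93 FPKM in CD38 KO and at 1.85 and 1.34 FPKM in WT (log2 change 1.79, adjusted p = 0.00195). Ptk2b, the calcium-sensitive kinase Pyk2, was at 10.1 and 11.5 FPKM in CD38 KO and at 4.87 and 4.91 FPKM in WT (log2 change 1.00, adjusted p = 0.00187). Both were called in all 4 fits without 1 library. Actn1, an actin cross-linker (log2 change 0.29, adjusted p = 0.0162), and Tns1, a tensin (0.35, adjusted p = 0.0171), were also higher, and their calls ended in each such fit (adjusted p up to 0.11 and 0.127). Those fits left 2 or 3 genes of the list higher and 0 lower. The summed level of the list was 924 and 897 FPKM in CD38 KO and 920 and 902 FPKM in WT. The changes of Fermt3 and Ptk2b lay within the range of the microglia and macrophage markers (0.29 to 3.15), and the part of those cells in them was not tested. Without the trend 3 genes of the list were higher and 0 lower.

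Among 19 tested integrin ligands other than laminins 6 were higher and 3 lower, with a median log2 change of 0.12. Together 47.4% were called, beside 14.4% of all tested genes. Postn, periostin, a ligand of Itgav dimers, was at 10.1 and 8.29 FPKM in CD38 KO and at 2.14 and 1.67 FPKM in WT (log2 change 1.81, adjusted p = 0.000922). The matricellular protein Ccn3 was at 8.02 and 8.82 FPKM in CD38 KO and at 2.16 and 2.23 FPKM in WT (log2 change 1.56, adjusted p = 0.000382). Tgfb1, whose latent form binds Itgav dimers, was at 7.31 and 6.97 FPKM in CD38 KO and at 2.33 and 2.38 FPKM in WT (log2 change 1.28, adjusted p = 0.000642). These 3 were called in all 4 fits without 1 library. Their changes also lay within the range of the microglia and macrophage markers, whose part in them was not tested. Tgfb2 fell to 11.1 and 11.4 FPKM in CD38 KO, against 16.6 and 16.2 FPKM in WT (log2 change -0.51, adjusted p = 0.00501), and of these fits it was called in the one without WT 2 (adjusted p = 0.0479, and 0.052 to 0.0665 in the others). In the same fits 3 to 5 genes of the list were higher and 0 or 1 lower.

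Of 14 tested basement membrane components that are neither laminin nor nidogen 1 was higher and 2 were lower, with a median log2 change of -0.16. Thus 21.4% of them were called, beside 14.4% of all tested genes. Col18a1, the source of endostatin, was at 19.7 and 20.2 FPKM in CD38 KO and at 16.1 and 14.8 FPKM in WT (log2 change 0.35, adjusted p = 0.0228). The lower genes were Sparc, a collagen-binding glycoprotein (log2 change -0.19, adjusted p = 0.0467), and Fbln1, fibulin-1 (log2 change -0.84, adjusted p = 0.0359). Leaving out any 1 library ended the calls of Col18a1 (adjusted p of 0.0601 to 0.145) and Sparc (0.0991 to 0.223), and that of Fbln1 held without CD38 KO 1 alone (0.0457, and 0.105 to 0.182 in the other fits), so that 0 genes were higher and 0 or 1 lower. The collagen IV chain Col4a1, to whose network nidogens link laminin, overlapped between the genotypes (log2 change -0.18, 95% interval -0.46 to 0.11). Col4a2 overlapped too (log2 change 0.01). Col4a5 and Col4a6 lay below WT in both CD38 KO libraries (log2 change -0.15 and -0.13), and neither was called. Col4a3 and Col4a4 were not tested.

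Of 24 tested genes of the dystroglycan complex and of the enzymes that glycosylate dystroglycan 2 were higher and 0 lower, with a median log2 change of 0.06. These were Dtna, the dystrobrevin of astrocytes, at 38.5 and 41.1 FPKM in CD38 KO and 32.1 and 32.5 FPKM in WT (adjusted p = 0.0213), and Sspn, sarcospan, at 20.9 and 21.2 FPKM in CD38 KO and 17.5 and 17.7 FPKM in WT (adjusted p = 0.0338). Without 1 library neither was called, at adjusted p of 0.0756 to 0.115 for Dtna and 0.14 to 0.158 for Sspn. Both calls ended without the trend as well. The share called, 8.33%, was below the 14.4% of all tested genes, and 8 of the 24 had an unadjusted p under 0.05, beside 30.3% of all tested genes.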

How the data were processed

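The study's RNA was selected for polyA and made into stranded libraries, per the labels' protocols, 2 libraries for each genotype. Per the submitters' processing notes, the tools were STAR 2.7.0f, bcl2fastq 2.17 and Cufflinks 2.2.1, on GRCm38. Per the file headers, the authors deposited FPKM per gene for 55467 gene IDs. Neither an annotation release nor a scaling of the libraries is stated in the labels. Gene positions come from GENCODE M21 (GRCm38), which holds 55226 of the IDs.

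Genotype was tested across the 13064 genes that averaged 1 FPKM or more by limma 3.58.1 (R 4.3.3) on log2(FPKM + 1), with a trend in the empirical Bayes moderation and Benjamini-Hochberg adjustment over all of them. Adding 1 understates changes of low genes. Ratios of means are without the added 1. The fit was tested on simulated data. Depth was estimated from 17493 genes with 1 annotated transcript, where 92.4% to 92.9% of low values were within 0.1 of a whole fragment; fragment numbers of single genes use the longest transcript and are approximate.

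The genes, lists and markers were chosen with earlier results of these data known. Values in every library are given for called genes and the most abundant of each role, and up to 4 called genes of smallest p are named from each list; others named were chosen after their values were seen. Duplicate symbols used the ID of highest mean. Promoter stretches were matched by symbol for 24 of the 36 genes. Python 3.11.15 was used for tables and figures.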

Additional observations from a re-analysis of the deposited data

How the results depend on the processing

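The 3 leukocyte integrins kept their call under each alternative that tested them; a filter at 5 FPKM left Itgam out. Fewer calls were made without a filter, which tests 26654 genes, namely 430 higher and 312 lower over all genes, with 2 higher and 1 lower outside the leukocyte integrins. With the replicate block the numbers were 610 and 427 over all genes, and 2 and 1 outside the leukocyte integrins, where Itgb5, Nid2 and Lama4 were called. The labels do not say whether the replicate numbers pair the libraries. The differences between library 1 and library 2 correlated at -0.161 (Pearson's r across genes) between the genotypes. With so few libraries this value cannot decide it. A block that crosses the numbers, chosen after seeing the data, gave 1102 higher and 859 lower genes, and 5 and 3 outside the leukocyte integrins. Without 1 library, 306 to 458 genes were higher and 225 to 284 lower, and outside the leukocyte integrins 1 to 2 were higher and 0 to 1 lower; the remaining library of a genotype is then assumed to vary like the other genotype. Other added values (0.1, 0.5), a filter at 5 FPKM, quantile or median-of-ratios scaling, moderation without trend or robust, and protein-coding genes alone gave counts within 1.5 times of those in the report over all genes and over both groups of integrin and matrix genes. The smaller lists moved more: without the trend 0 astrocyte markers were higher and 5 lower, 1 basement membrane component was higher and 0 lower, and 0 dystroglycan complex genes were called, and with protein-coding genes alone 1 basement membrane component was higher and 4 lower. No called gene among the 23 tested integrin and matrix genes changed direction. With 2 libraries a genotype, a gene that did not pass is not shown to be equal between the genotypes.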
